A study of Mus musculus with 11 samples.

Results

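The eicosanoid synthesis and breakdown enzymes examined here were 9 genes picked by symbol from a table of 16934 genes: Hpgd, Hpgds, Ptgs1, Ptgs2, Ptges, Alox5, Alox5ap, Ltc4s and Lta4h. All 9 were in the table and all 9 passed the low-count filter. Hpgd was listed because its level beside neurons was low in an earlier analysis of the same libraries, so its values are described without a test. Expression was measured by 3′ mRNA sequencing of primary microglia of C57BL/6 mice, taken from pups between postnatal days 0 and 3 and cultured for 7 to 10 days. In 4 libraries the microglia had spent 6 h on primary cortical neurons that had taken up α-syn fibrils, labelled with Atto488 and given at 0.1 µM over 16 h before washing. In 3 libraries they had spent 6 h on neurons given no fibrils, and in 4 they had been kept alone. The neurons were 14 days in vitro in both co-cultures. How microglia were parted from neurons, and whether the libraries within a group stem from different cultures or mice, is not given in the labels. The p-values therefore reflect the variation among these libraries, and that variation may be technical.

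Eicosanoids are short-lived signalling lipids made from arachidonic acid that phospholipases free from membranes. The cyclooxygenases, encoded by Ptgs1 and Ptgs2, convert arachidonic acid to prostaglandin H2, which terminal synthases turn into prostaglandin E2 (Ptges), prostaglandin D2 (Hpgds in myeloid cells) or thromboxane. Hpgd encodes the dehydrogenase that begins the inactivation of prostaglandins. 5-lipoxygenase (Alox5), helped by its membrane partner FLAP (Alox5ap), makes leukotriene A4, which Lta4h turns into leukotriene B4 and Ltc4s into leukotriene C4. Microglia are known to express Ptgs1 and Hpgds at rest and to induce Ptgs2 and Ptges in inflammation.

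In mm10 coordinates Hpgd lies on chromosome 8 from 56294585 to 56321043, Ptgs1 on chromosome 2 from 36230426 to 36252272, Ptgs2 on chromosome 1 from 150100031 to 150108227 and Ptges on chromosome 2 from 30889471 to 30929863. None of the annotated genes that overlap the 9 enzymes was in the count table. The 200 bases before the RefSeq start site are shown for these 4 genes (build GRCm38.p6, 5′ to 3′ on the gene's strand), because Hpgd and Ptgs1 differed most plainly between co-cultures and microglia alone, and Ptgs2 and Ptges were high together in single libraries. Capitals mark matches to 5 motifs, each searched on both strands, so that a match on the other strand appears as its reverse complement. The TATA box was searched as TATAAA. The GC box was searched as GGGCGG. The AP-1 site was searched as TGANTCA, and the core bound by the myeloid factor PU.1 was searched as GAGGAA. The NF-kB site was searched by its consensus, and no 2 matches in the windows shown overlap.
Hpgd, chr8:56294352-56294551, plus strand: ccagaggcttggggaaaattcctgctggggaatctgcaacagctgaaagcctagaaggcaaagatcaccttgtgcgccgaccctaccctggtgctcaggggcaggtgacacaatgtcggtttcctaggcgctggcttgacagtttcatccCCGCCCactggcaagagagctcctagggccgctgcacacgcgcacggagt
Ptgs1, chr2:36230226-36230425, plus strand: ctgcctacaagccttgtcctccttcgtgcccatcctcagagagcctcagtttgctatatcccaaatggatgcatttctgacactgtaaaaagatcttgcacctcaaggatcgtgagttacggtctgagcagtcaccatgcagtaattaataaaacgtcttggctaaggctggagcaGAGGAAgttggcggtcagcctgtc
Ptgs2, chr1:150099831-150100030, plus strand: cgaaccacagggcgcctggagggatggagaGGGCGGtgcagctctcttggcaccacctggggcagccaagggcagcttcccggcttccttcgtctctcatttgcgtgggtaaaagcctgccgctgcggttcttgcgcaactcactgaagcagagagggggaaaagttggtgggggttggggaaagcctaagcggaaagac
Ptges, chr2:30903298-30903497, minus strand: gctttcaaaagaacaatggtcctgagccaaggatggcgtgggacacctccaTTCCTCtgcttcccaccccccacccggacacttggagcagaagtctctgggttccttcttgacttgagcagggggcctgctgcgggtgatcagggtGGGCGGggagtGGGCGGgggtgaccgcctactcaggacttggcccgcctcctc
The Hpgd window held 1 GC box match, 50 bases before the start. The Ptgs1 window held 1 PU.1 core, 24 bases before the start. Ptgs2 had 1 GC box at 170 bases. Ptges had 2 GC boxes, at 53 and 42 bases, and 1 PU.1 core at 149 bases. Over 32843 RefSeq start-site windows of the same length, 31.1% held a GC box, 19.03% a PU.1 core, 9.96% a TATA box, 5.48% an AP-1 site and 3.18% the NF-kB consensus. An entry was found for 8 of the 9 members, Alox5ap being the exception. The matches are descriptions of these windows, and no factor's binding was measured.

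The fibril-loaded co-cultures had total counts of 8253070 to 14844071, the untreated co-cultures of 10925771 to 16802451 and microglia alone of 10700940 to 14541179. Values are CPM, the counts scaled to a common library size after TMM normalisation. Because 3′ sequencing reads each transcript near its end, CPM were not divided by gene length. Microglial genes were abundant throughout: 14 markers, among them Csf1r, C1qa and Trem2, summed to between 14896 and 21367 CPM with fibril-loaded neurons, between 17167 and 20908.5 CPM with untreated neurons and between 13540.1 and 14813 CPM in microglia alone. The 12 neuron markers summed to between 8.45 and 46.2, between 0 and 30.1 and between 61.5 and 180.05 CPM in the same order, with Snap25 at 0 in every library. Rn45s, the ribosomal RNA precursor, took between 10.97% and 17.01%, between 10.7% and 15.7% and between 14.0014% and 24.8% of counts. The summed microglial markers were thus higher, and the summed neuron markers lower, in every co-culture than in any library of microglia alone. Single markers mostly overlapped: 1 of 14 microglial markers (Cx3cr1) lay higher in all co-cultures, while Csf1r, Trem2 and Ctss overlapped, and 2 of 12 neuron markers (Tubb3 and Dcx) lay lower. The part of these markers in the results below was not tested. In such bulk samples fewer cells of a type and less RNA per cell cannot be told apart.

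Hpgd, the prostaglandin-inactivating enzyme, was low beside neurons whether or not these carried fibrils. With fibril-loaded neurons its levels were 9.17, 29.1, 61.7 and 21.8 CPM in libraries 1 to 4. With untreated neurons they were 32.4, 32.7 and 27.7 CPM in libraries 1 to 3. In microglia alone they were 180.4, 120.2, 194 and 391.6 CPM in libraries 1 to 4. Each of the 7 co-cultures lay below each of the 4 cultures without neurons. Untreated co-cultures lay within 1.18-fold of each other, while those with fibrils spanned 6.74-fold and microglia alone 3.26-fold. The mean level was 30.5 ± 22.4 CPM beside fibril-loaded neurons (SD, n = 4), 30.9 ± 2.77 CPM beside untreated ones (n = 3) and 222 ± 118 CPM without neurons (n = 4). The fitted log2 fold change was -2.86 (SE 0.48) with fibril-loaded and -2.84 (SE 0.54) with untreated neurons, both against the same libraries of microglia alone, and it was -0.02 (SE 0.49) between the co-cultures. Without a single library the fold change lay between -3.47 and -2.44 for fibril-loaded and between -3.05 and -2.41 for untreated neurons.

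**Figure D1:**
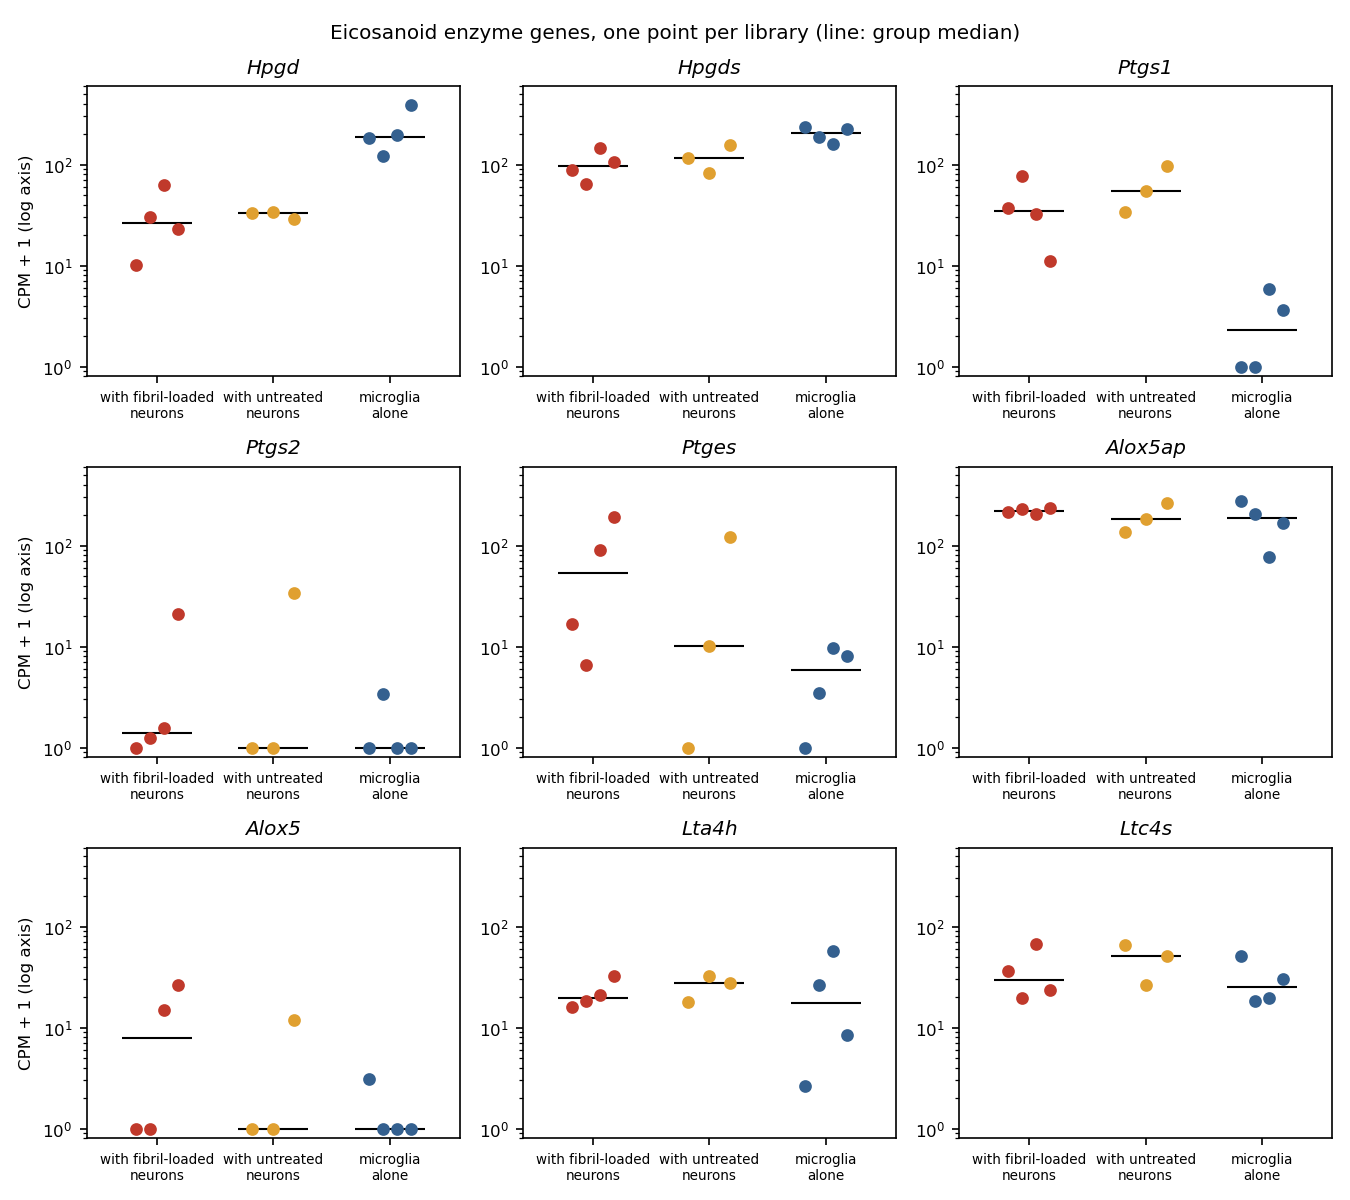
CPM + 1 on a log axis for the 9 enzyme genes, with 1 point per library and a line at each group's median, from left to right with fibril-loaded neurons (4), with untreated neurons (3) and microglia alone (4). Hpgd and Hpgds sit lower and Ptgs1 higher in all 7 co-cultures than in any library of microglia alone, while the groups of the other 6 genes overlap.

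Hpgds, the hematopoietic prostaglandin D synthase, lay lower in the same direction but by less. It was at 86.4, 63.9, 145 and 105 CPM with fibril-loaded neurons, at 115, 81.5 and 157 CPM with untreated neurons and at 232, 186, 160.3 and 227 CPM in microglia alone. The highest co-culture library, at 157 CPM, was just below the lowest of microglia alone, at 160.3 CPM. The log2 fold change was -1.01 (95% interval -1.66 to -0.35) with fibril-loaded neurons and -0.77 (-1.49 to -0.05) with untreated neurons. Neither passed in edgeR's quasi-likelihood test after Benjamini-Hochberg (BH) adjustment over 11276 genes (adjusted p = 0.269 and 0.444), nor did the mean of both co-cultures against microglia alone, at -0.89 (adjusted p = 0.145). DESeq2 gave that last difference an adjusted p of 0.0479, the lowest of the alternatives tried, which reached up to 0.435. Between the co-cultures the difference was -0.24, with an interval from -0.94 to 0.47.

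Ptgs1, the constitutive cyclooxygenase, was near the detection limit in microglia alone and present in every co-culture. It was at 36.1, 75.8, 31.5 and 10.02 CPM with fibril-loaded neurons and at 32.6, 53.9 and 96.5 CPM with untreated neurons. In microglia alone it was at 0, 0, 4.87 and 2.59 CPM, and the counts of 0 in libraries 1 and 2 allow up to 0.235 and 0.298 CPM (3 counts, counting error only). Its mean was 38.4 ± 27.4 CPM with fibrils (SD, n = 4), against 61.03 ± 32.6 CPM beside untreated neurons (SD, n = 3) and 1.87 ± 2.35 CPM in microglia alone (SD, n = 4). The lowest co-culture, library 4 with fibrils, was still above the highest library of microglia alone. The log2 fold change with untreated neurons was 5.02 (SE 1.16, edgeR BH-adjusted p = 0.0488). With fibril-loaded neurons it was 4.35 (SE 1.10, edgeR BH-adjusted p = 0.116). Under other settings this second comparison passed without a low-count filter, in DESeq2 and with a block for library number, with adjusted p-values between 3.72e-06 and 0.321 over all alternatives. The mean of both co-cultures was higher than microglia alone by 4.69 (SE 1.08, edgeR BH-adjusted p = 0.0356). Between the co-cultures the difference was -0.67 with an interval from -2.79 to 1.45, so a difference between fibril-loaded and untreated neurons was not detectable at this spread. The size of a fold against microglia alone depends on the few counts there, 86 over 4 libraries.

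The Ptgs1 call against microglia alone stood close to the threshold. For untreated neurons it held on leaving out library 1 of the untreated co-culture or library 3 of microglia alone and was lost without any of the other 9 libraries (edgeR BH-adjusted p between 0.032 and 0.158, log2 fold change between 4.53 and 6.11). For both co-cultures jointly it was lost without library 1, 2 or 3 of the fibril co-culture, library 3 of the untreated co-culture or library 1, 2 or 4 of microglia alone (edgeR BH-adjusted p between 0.027 and 0.0945). The direction was the same in all of these fits.

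**Figure D2:**
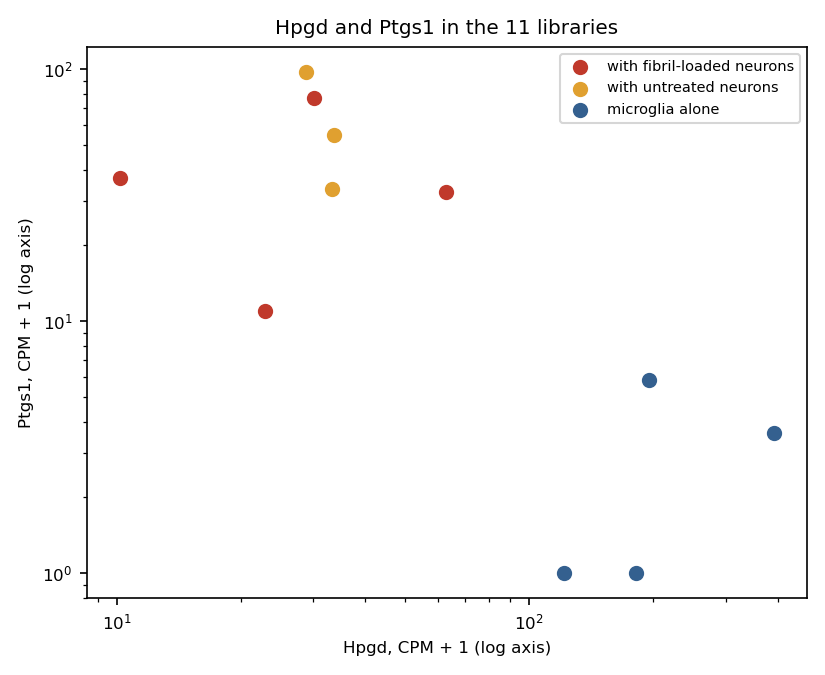
Ptgs1 against Hpgd, both as CPM + 1 on log axes, in 11 libraries coloured by group. The 7 co-cultures lie at no more than 61.7 CPM of Hpgd and at least 10.02 CPM of Ptgs1, and the 4 libraries of microglia alone at no less than 120.2 CPM of Hpgd and at most 4.87 CPM of Ptgs1.

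Among the 8 members other than Hpgd, 1 (Ptgs1) was called with untreated neurons against microglia alone, where 0.639% of all genes tested were called. With fibril-loaded neurons 0 of the 8 were called in edgeR, against 0.319% of all genes, and for both co-cultures jointly 1 (Ptgs1), against 1.03%. CPM ranges lay apart for Hpgds and Ptgs1, 2 of the 8, in each of these comparisons, where they did for 10.3% of all genes with untreated neurons, 5.62% with fibril-loaded neurons and 2.67% jointly. Of the 8, 3 members (Hpgds, Ptgs1 and Ptges) had an unadjusted edgeR p below 0.05 in each of these comparisons. Over all genes 10.3% did with untreated neurons, 8.14% with fibril-loaded neurons and 11.3% jointly. The median log2 fold change of the 9 members was 0.70 with untreated neurons, 0.31 with fibril-loaded neurons and 0.50 jointly, against medians of -0.05, -0.04 and -0.09 over all genes tested. The member medians include Hpgd. Ptgs2, Ptges and Alox5 lie above them on values from few libraries, so the medians are a description only.

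Ptges, the inducible prostaglandin E synthase, ranged widely within each co-culture. It was at 15.8, 5.61, 89.9 and 191 CPM with fibril-loaded neurons and at 0, 9.14 and 121 CPM with untreated neurons. In microglia alone it was at 0, 2.48, 8.68 and 7.11 CPM. Libraries 3 and 4 with fibrils and library 3 with untreated neurons stood far above the rest and held 89.2% of the summed CPM over 11 libraries. The other co-culture libraries lay in or near the range of microglia alone. The log2 fold change was 4.05 (95% interval 1.14 to 6.96, edgeR BH-adjusted p = 0.382) with fibril-loaded and 3.25 (0.34 to 6.15, 0.42) with untreated neurons, and neither passed. Without a low-count filter both did (adjusted p = 6.98e-08 and 5.81e-05), and in no other alternative did either. Without library 3 of the untreated co-culture the second was -0.01.

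Alox5, the 5-lipoxygenase gene, had counts in those same 3 co-culture libraries and in no other co-culture. It was at 13.8 and 25.3 CPM in libraries 3 and 4 with fibrils, at 10.9 CPM in library 3 with untreated neurons, at 2.11 CPM in library 1 of microglia alone and at 0 elsewhere. Ptgs2, the inducible cyclooxygenase, was at 0, 0.234, 0.563 and 19.97 CPM with fibril-loaded neurons, at 0, 0 and 33.01 CPM with untreated neurons and at 0, 2.38, 0 and 0 CPM in microglia alone. Its high values were thus in 2 of the 3 libraries that were high in Ptges. Neither gene passed: edgeR's BH-adjusted p was 0.943 with fibril-loaded and 0.908 with untreated neurons for Alox5, and 1.00 and 0.729 for Ptgs2. Across the 11 libraries Pearson's r of log2(CPM + 1) was 0.75 between Ptges and Alox5, 0.69 between Ptgs2 and Ptges and 0.74 between Ptgs2 and Alox5, as a description of points that share libraries and many counts of 0.

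Summed markers of another cell type were high in the libraries with high Ptges and Alox5. The 7 astrocyte markers summed to 12.2, 14.4, 67.6 and 67.7 CPM with fibril-loaded neurons and to 14.4, 23.8 and 78.1 CPM with untreated neurons. In microglia alone they summed to between 3.76 and 10.5 CPM. The 3 libraries with the highest sums were those with the highest Ptges, though Ptgs2 was at 0.563 CPM in library 3 with fibrils. Of the 7, Slc1a2 had the largest mean with fibrils, at 24.4 CPM, against 8.27 CPM with untreated neurons and 1.26 CPM alone. All 7 markers had a count in at least 1 library, but for none of the 7 did the co-cultures lie apart from microglia alone. The defining marker Gfap had counts in only 2 libraries, at 4.51 CPM in library 4 with fibrils and 21.6 CPM in library 3 with untreated neurons, and none in library 3 with fibrils. S100b averaged 4.64 CPM with fibrils, 4.17 CPM with untreated neurons and 5.35 CPM alone. Whether astrocyte RNA had a part in the levels of Ptges, Alox5 and Ptgs2 was not tested.

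**Figure D3:**
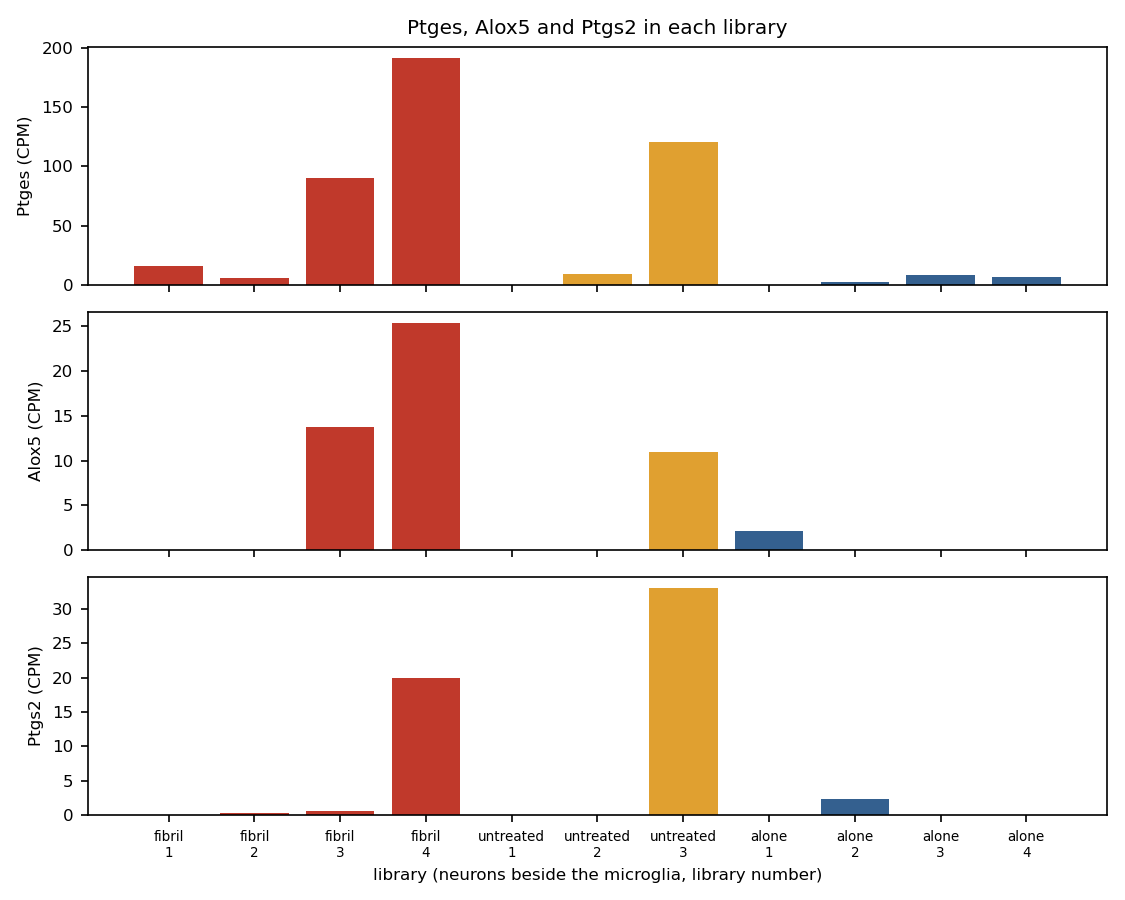
CPM of Ptges, Alox5 and Ptgs2 in each of 11 libraries as bars from 0, with fibril-loaded neurons on the left, untreated neurons in the middle and microglia alone on the right. Libraries 3 and 4 with fibrils and library 3 with untreated neurons hold the high values of Ptges and Alox5, and the last pair of these those of Ptgs2.

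The other leukotriene genes had levels that overlapped between the groups. Alox5ap, which encodes FLAP, was at 214, 227, 204 and 234 CPM with fibril-loaded neurons, at 135, 182 and 261 CPM with untreated neurons and at 275, 205, 75.99 and 166 CPM in microglia alone. It was even within the fibril co-culture, at 220 ± 13.4 CPM (SD, n = 4), and more spread with untreated neurons (193 ± 64.1 CPM, n = 3) and alone (180.4 ± 82.99 CPM, n = 4). Its log2 fold change against microglia alone was 0.28 (95% interval -0.41 to 0.98) with fibril-loaded and 0.09 (-0.65 to 0.84) with untreated neurons. FLAP transcripts were thus present in all 11 libraries, while Alox5 had counts in 4.

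Ltc4s, the leukotriene C4 synthase, was at 34.9, 18.5, 65.97 and 22.6 CPM with fibril-loaded neurons, at 65.1, 25.3 and 49.8 CPM with untreated neurons and at 49.6, 17.3, 18.4 and 29.6 CPM in microglia alone. Lta4h, the leukotriene A4 hydrolase, was at 15.1, 17.3, 19.9 and 31.7 CPM with fibril-loaded neurons, at 16.7, 31.2 and 26.8 CPM with untreated neurons and at 1.64, 25.7, 56.4 and 7.52 CPM in microglia alone. The groups overlapped for both genes. Lta4h spanned 34.3-fold within microglia alone, against 2.09-fold with fibrils and 1.86-fold with untreated neurons. The edgeR BH-adjusted p of Ltc4s was 1.00 with fibril-loaded and 0.845 with untreated neurons, and that of Lta4h 1.00 and 0.998.

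Fibril-loaded neurons were set against untreated neurons to ask what the fibrils added. None of the 9 members was called in edgeR, where 0% of all genes were called, and none had an unadjusted p below 0.05, against 3.95% of all genes, or CPM ranges that lay apart, against 4.68%. DESeq2 also called 0 of the 9, with 207 genes called in all. Log2 fold changes ran from -1.08 for Ptgs2 to 1.43 for Alox5, both of which rest on few libraries with counts. The intervals were narrowest for Hpgds and the FLAP gene, from -0.56 to 0.94 in the second, and wide for Ptges, from -2.01 to 3.62, so differences of several fold could be missed.

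**Figure D4:**
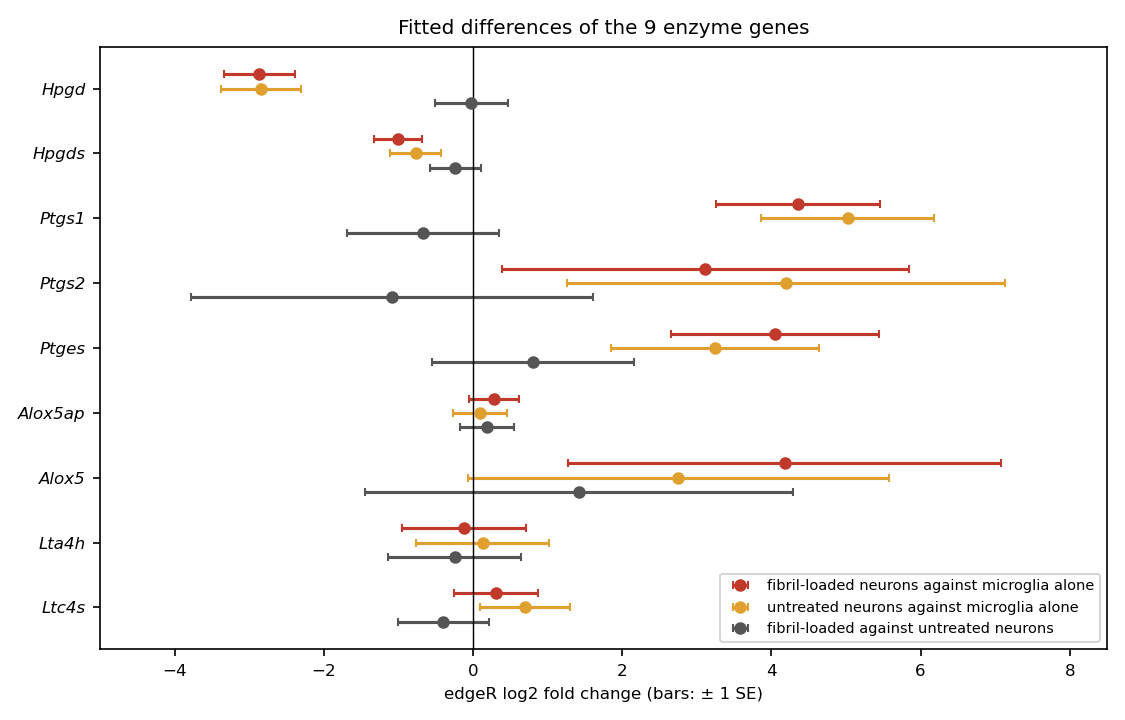
EdgeR log2 fold changes of the 9 enzyme genes with bars of 1 SE, for fibril-loaded neurons against microglia alone, untreated neurons against microglia alone, and fibril-loaded against untreated neurons. Hpgd lies at -2.86 and -2.84 and Ptgs1 at 4.35 and 5.02 against microglia alone, and the differences between the co-cultures lie between -1.08 and 1.43.

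The rest of the pathway was described with 80 other gene symbols in 8 lists. Of these 69 were in the table, 15 of those without a count in any library, and 45 were tested. The lists held some genes under 2 symbols (Fam213b and Prxl2b, Ptgr3 and Zadh2), of which only Prxl2b and Zadh2 were in the table. With both co-cultures set jointly against microglia alone, 1 of the 45 was higher and 0 were lower after adjustment, against 0.603% and 0.426% of all genes. The gene was Tbxas1, the thromboxane synthase, which uses the prostaglandin H2 that the cyclooxygenases make. Tbxas1 was at 179, 263, 196 and 116 CPM with fibril-loaded neurons, at 139, 306 and 150.3 CPM with untreated neurons and at 104, 47.7, 51.2 and 75.5 CPM in microglia alone, so all 7 co-cultures lay above all 4 libraries of microglia alone. It was higher by a log2 of 1.47 (SE 0.33, edgeR BH-adjusted p = 0.033). Against microglia alone, it did not pass with untreated (1.51, adjusted p = 0.0722) or fibril-loaded neurons (1.44, adjusted p = 0.107) singly. The joint call was lost in edgeR without library 2 or 3 of the fibril co-culture, library 2 of the untreated co-culture or library 2, 3 or 4 of microglia alone, with an adjusted p of up to 0.102. In each single comparison edgeR called 0 of the 45, with 9 at an unadjusted p below 0.05 for untreated neurons, 10 for fibril-loaded neurons and 2 between the co-cultures. Over all genes the shares at that p were 10.3%, 8.14% and 3.95%.

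No receptor gene passed in the edgeR test used throughout. Fitted joint differences were positive for 3 of 4 tested prostanoid receptors and 3 of 4 tested genes of the leukotriene and lipid mediator receptor list. Ptger4, the EP4 receptor for prostaglandin E2, was at 59.4, 48.8, 94.3 and 60.5 CPM with fibril-loaded neurons and at 70.1, 54.2 and 43.1 CPM with untreated neurons. In microglia alone it was at 9.24, 24.3, 40.7 and 18.2 CPM, below every co-culture. Its joint log2 fold change was 1.39 (SE 0.44, edgeR BH-adjusted p = 0.161); Ttc33 overlaps its 3′ end on the other strand, and reads of the pair cannot be told apart without strand. Ptger1, the EP1 receptor, was at 23.7 ± 9.60 CPM with fibrils (n = 4), 23.8 ± 17.2 CPM beside untreated neurons (n = 3) and 18.1 ± 4.46 CPM alone (n = 4). Fpr1 (2.31, SE 0.70, edgeR BH-adjusted p = 0.136), a formyl peptide receptor, and Cmklr1 (1.07, SE 0.38, adjusted p = 0.239), a receptor for chemerin, did not pass either. Under other settings Fpr1 passed jointly without a low-count filter, in DESeq2, without the 3 libraries that detected fewest genes in their groups and with a block for library number (lowest adjusted p = 0.00173), and Ptger4 in DESeq2 only (adjusted p = 0.0296). Of 4 tested genes in each receptor list, 0 were called in edgeR. At an unadjusted p below 0.05 jointly were 1 prostanoid receptor (Ptger4) and 3 genes of the other list, against 11.3% of all genes. Those 3 were Fpr1, Fpr2 and Cmklr1. Cysltr1, the only leukotriene receptor gene tested, differed jointly by -0.28 (edgeR unadjusted p = 0.794). The leukotriene B4 receptor genes Ltb4r1 and Ltb4r2 had no count in any library.

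Genes that supply or recycle arachidonic acid did not pass. Of 10 tested release genes and 8 re-esterification genes edgeR called 0 in any comparison, with 1 and 4 at an unadjusted p below 0.05 jointly, against 11.3% of all genes (1.03% called). The release gene was Pla2g7, higher by a log2 of 1.19. The others were Acsl1 and Lpcat2, higher (1.57 and 0.94), and Acsl3 and Acsl4, lower (-2.09 and -0.61). Joint CPM ranges lay apart for Acsl3 and Lpcat2 only, where 2.67% of all genes did. Pla2g4a, a release gene, differed jointly by -1.31 (edgeR unadjusted p = 0.0501), with ranges apart for untreated neurons only. Abhd12, a lysophospholipid and monoacylglycerol lipase, averaged 240.2 ± 47.3 CPM with fibrils (n = 4), 291 ± 107 CPM beside untreated neurons (n = 3) and 304 ± 74.2 CPM alone (n = 4). Pla2g15, the lysosomal phospholipase, averaged 111 ± 28.7, 124 ± 38.6 and 184 ± 79.2 CPM in the same order. Acsl4, which activates arachidonic acid for return to membranes, was at 90.2 ± 32.4 CPM with fibrils, 52.7 ± 1.77 CPM with untreated neurons and 105 ± 18.9 CPM alone (joint log2 fold change -0.61, edgeR BH-adjusted p = 0.431), and Lpcat3, which inserts it, at 144 ± 35.7, 106 ± 6.97 and 105 ± 44.5 CPM.

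Of the remaining lists, 8 other prostanoid synthases, 4 transport and breakdown genes, 4 lipoxygenase, P450 and epoxide hydrolase genes and 3 leukotriene export and breakdown genes were tested. Ptges3, a co-chaperone also known as cytosolic prostaglandin E synthase, differed jointly by a log2 of -0.31 (edgeR BH-adjusted p = 0.915). Among reductases of the breakdown route that follow Hpgd, Ptgr1 differed by 0.04 and Ptgr2 by -0.27 (adjusted p = 1.00 and 0.973). The joint value of Ptgr2 averages 0.49 with untreated and -1.02 with fibril-loaded neurons. Between the co-cultures Ptgr2 was at -1.51 (edgeR unadjusted p = 0.0347), with ranges apart, and did not pass after adjustment. The epoxide hydrolase Ephx1 differed by -0.76 and the P450 gene Cyp4f13 by 0.73 (adjusted p = 0.642 and 0.943). Abcc1, which exports leukotriene C4, differed by 1.04 (adjusted p = 0.339). Dpep2, a dipeptidase that trims leukotriene D4, was at 6.67 ± 7.96 CPM with fibrils (n = 4) and 8.82 ± 9.75 CPM beside untreated neurons (n = 3), against 27.1 ± 5.92 CPM in microglia alone (n = 4) (log2 -1.82, adjusted p = 0.691, ranges apart).

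**Figure D5:**
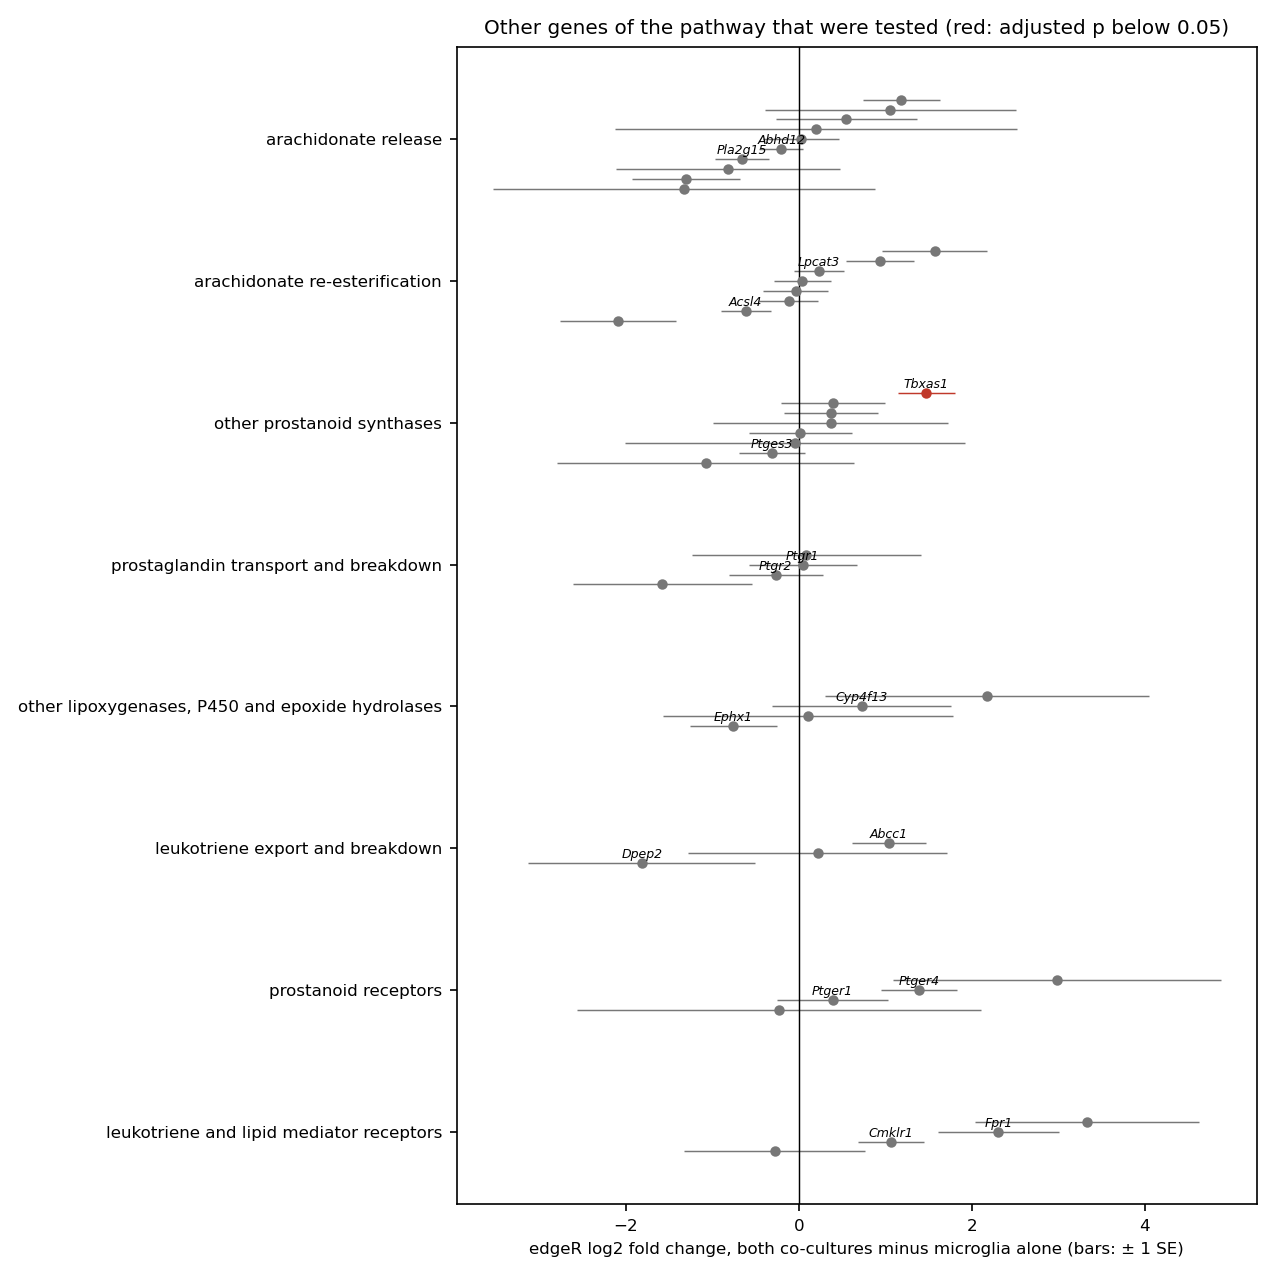
EdgeR log2 fold changes, both co-cultures minus microglia alone, with bars of 1 SE, for the 45 tested genes of 8 lists of the wider pathway; the pair with the highest mean CPM of each list is named. Tbxas1, at 1.47, is the only one of these drawn in red, for an adjusted p below 0.05.

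The genes whose pattern was most like that of Hpgd were Atp6v1a, a proton pump subunit (Pearson's r = 0.92), the splicing factor gene Snrpb2 (0.90), the chromatin gene Msl3 (0.90), the macrophage transcription factor gene Maf (0.90) and Ier5 (0.89), over 11 libraries and 7362 genes of at least 10 CPM, on log2(CPM + 1). Maf averaged 159 ± 36.3 CPM with fibrils (n = 4), 174 ± 24.5 CPM beside untreated neurons (n = 3) and 331 ± 54.9 CPM alone (n = 4). For Ptgs2 the likest were Smim11 (0.82), Mrpl35 (0.78), Pigm (0.78), Prrc2b (0.78) and Tmem223 (0.77), which follow the few libraries with Ptgs2 counts. Among the members, Hpgd and Hpgds had an r of 0.80, and Ptgs1 had -0.74 with each of them. These values describe points that share the group difference, and neighbours in rank were close.

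Markers of further cells that make eicosanoids were low. Of 8 mast cell markers 1 was in the table (Kit), at 2.66 CPM in 1 library of microglia alone and 0 elsewhere. The 4 platelet markers in the table summed to between 2.01 and 7.03 CPM with fibril-loaded neurons, between 0 and 10.2 CPM with untreated neurons and between 0 and 18.6 CPM alone. The 5 neutrophil and monocyte markers in the table summed to 0, 1.63, 8.82 and 5.11 CPM in libraries 1 to 4 with fibril-loaded neurons. They summed to 0, 12.9 and 13.3 CPM in libraries 1 to 3 with untreated neurons and to at most 2.58 CPM alone. The libraries high in Ptges and Alox5 were above every library of microglia alone. So was library 2 with untreated neurons, where Alox5 had no count. The part of the neutrophil and monocyte markers in the levels of Ptges and Alox5 was not tested. The border-associated macrophage list summed to 448 to 754 CPM with fibrils, 615 to 873 CPM with untreated neurons and 576 to 890.0 CPM alone. In that list Lyve1 and Cd209f were at 0. Its member Mrc1 lay between 123 and 223 CPM with fibrils and between 119 and 265 CPM with untreated neurons, below the range of 287 to 350.1 CPM alone. It was the only 1 of the 7 to lie apart: F13a1 averaged 37.4 CPM with fibrils, 34.9 CPM with untreated neurons and 23.9 CPM alone, and Ms4a7 378, 469 and 389.7 CPM in the same order. The part of these markers in the levels of Hpgd and Hpgds was not tested. The oligodendrocyte list summed to between 124 and 254, between 231 and 263 and between 126 and 209 CPM, the endothelial list to between 4.504 and 64.04, between 18.2 and 81.3 and between 28.9 and 113 CPM, and the fibroblast and mural list to at most 1.66, 0.179 and 14.5 CPM. Of the 9 oligodendrocyte markers 1, Cspg4, lay apart and higher in co-culture. Cspg4 was at 47.4 to 112.8 CPM with fibrils and 48.1 to 67.7 CPM with untreated neurons, against 0 to 37.04 CPM alone.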

How the data were processed

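The authors deposited raw counts, one row per gene symbol, for 11 libraries. Per the labels' protocols, RNA was isolated with a micro-column kit and libraries were made with the QuantSeq 3′ mRNA kit. STAR, Partek and DESeq2 are the tools, and mm10 the build, listed without versions per the submitters' processing notes. Whether counting used strand is not given in the sources used here. A second table deposited by the authors was treated as a score. In each library at least 99.48% of its values lay within 0.51 of the raw count scaled by a single factor. It served only as an alternative.

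The main analysis used edgeR 4.0.16 under R 4.3.3. Genes were filtered by filterByExpr, which kept 11276 of 16934, and scaled by TMM. One quasi-likelihood model without covariates was fitted to the 3 groups. Tests were two-sided, with Benjamini-Hochberg adjustment over genes and a threshold of 0.05. SE is the log2 fold change over the root of the F value, and 95% intervals use the fit's degrees of freedom. Both co-cultures jointly means the average of their fitted levels. Comparisons with microglia alone share its 4 libraries. The code was tested on simulated data with known changes. No pair of libraries agreed within sampling noise.

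The members, lists and tests were chosen with earlier results of these data known. Named from each pathway list were called genes and the 2 with the highest mean CPM, with some others where a count is broken down. Likeness to Hpgd and Ptgs2 was ranked over genes with proper symbols and a mean of at least 10 CPM. Libraries were numbered within a group in order of deposition. Positions are from the GENCODE annotation of mm10 and start-site windows from RefSeq on GRCm38.p6. The alternatives tried were a mean of at least 5 CPM or no filter, RLE scaling, DESeq2 1.42.0, limma 3.58.1 on log2(value + 1) of the normalized table, the 2 groups compared only, each library left out, and, chosen after seeing the data, Rn45s left out and, in each group, the library that detected fewest genes left out, and a block for sets of libraries by the number in the label's library ID. Total counts ran from 8253070 to 16802451, and 3 counts correspond to at most 0.35 CPM.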

Additional observations from a re-analysis of the deposited data

Results flagged for a closer look

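Each member was checked for a library far from the others in both groups of 4, 18 groups in all, of which chance flags about 1 in 20. In 3 groups 1 library stood apart. Ptgs2 was at 19.97 CPM in library 4 with fibril-loaded neurons, where the other 3 libraries were at most at 0.563 CPM. In microglia alone Ptgs2 was at 2.38 CPM in library 2 and Alox5 at 2.11 CPM in library 1, with no count in the other 3 libraries in either case. Where the other 3 libraries are at 0, any count sets a library apart, so that rate does not apply to these.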

How the results depend on the processing

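The labels give no replicate numbers, but the numbers in their library IDs step by 7 within each group, which forms 4 sets whose meaning is not stated. Correlations of deviations from group means were low, but higher within sets than between them. Median r was 0.038 over 10 same-set pairs (-0.0244 to 0.069, 0 of them over 0.1). It was -0.017 over 30 others (-0.0517 to 0.0495). Of 11 libraries, 5 were closest to one of their own set. Library 3 of both co-cultures, high in Ptges, belonged to the same set, and library 4 with fibrils to another. The main model has no term for these sets, and whether they share an effect was not tested. A replicate block for these sets, chosen after seeing the data, called 95, 66, 0 and 177 genes with untreated neurons, with fibril-loaded neurons, between the co-cultures and jointly. With this block 1, 0, 0 and 2 of the other pathway genes were called in the same order, and Ptgs1 passed with fibril-loaded neurons. Lta4h turned to 0.41 with fibril-loaded neurons and 0.048 between the co-cultures.

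Against microglia alone, 1 member other than Hpgd was called with untreated neurons, 0 with fibril-loaded neurons and 1 jointly. Over the alternatives each of these counts ran from 0 to 2. On leaving out 1 library they ran from 0 to 1 with untreated neurons and jointly, and stayed at 0 with fibril-loaded neurons. Ptgs1 was lost with untreated neurons under the 5 CPM filter, with the 2 groups only and without the 3 libraries with the fewest genes. Jointly it was lost under the 5 CPM filter and without those 3 libraries. The other pathway genes called (0, 0 and 1) were 2, 2 and 3 without a filter, 1, 2 and 5 in DESeq2, and jointly 2 without those 3 libraries and 0 to 1 on leaving out 1 library. Between the co-cultures no member was called under any setting. Genes called in all, 72 with untreated neurons, 36 with fibril-loaded neurons, 0 between the co-cultures and 116 jointly, were 503, 273, 207 and 583 in DESeq2 and 234, 164, 5 and 341 without a filter. With the 2 groups only 41 were called for untreated neurons and with a mean of at least 5 CPM 47. Without those 3 libraries 29 were called for untreated neurons and 59 jointly. On leaving out 1 library the counts ran from 32 to 76 with untreated neurons, 23 to 42 with fibril-loaded neurons, 0 to 1 between the co-cultures and 55 to 106 jointly. Against microglia alone the lowest counts came without its library 1 (untreated neurons, joint) or library 2 (fibril-loaded neurons).

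Hpgd, Hpgds, Ptgs1 and Tbxas1 kept their direction in every fit against microglia alone. Signs turned mostly where a difference was small or rested on 1 library, and the cause was not tested further. Lta4h was -0.018 with untreated neurons and -0.19 jointly without those 3 libraries and 0.78 with fibril-loaded neurons in limma. Between the co-cultures Ptgs2 was 0.34 in limma and Alox5ap -0.0069 without those 3 libraries. Jointly Cyp4f13 was -0.24 and Ptger1 -0.051 without those 3 libraries. On leaving out 1 library Cyp4f13 stayed positive, between 0.29 and 2.24. On leaving out 1 library the log2 fold change with untreated neurons ran from -5.89 to 4.78 for Ptgs2, -0.0097 to 3.84 for Ptges, -5.73 to 8.53 for Alox5, -0.19 to 0.37 for Alox5ap and -0.26 to 1.10 for Lta4h. With fibril-loaded neurons it ran from -0.18 to 0.72 for Ltc4s and -0.49 to 0.87 for Lta4h. Between the co-cultures it ran from -0.47 to 0.026 for Hpgds, -1.66 to 8.997 for Ptgs2, -0.23 to 4.06 for Ptges and -0.28 to 0.38 for Tbxas1. Jointly it ran from -1.39 to 3.96 for Ptgs2, -0.77 to 9.25 for Alox5, -0.056 to 0.47 for Alox5ap, -0.37 to 0.98 for Lta4h, -0.61 to 0.23 for Ptges3, -0.53 to 0.50 for Ptgr2 and -0.21 to 0.28 for Ptgr1. The negative extremes of Ptgs2 and Alox5 came without library 3 of the untreated co-culture, the only one of that group with counts, and fitted folds against a group at 0 have no set size. With 3 or 4 libraries a group and a biological coefficient of variation of 1.15, small differences of low genes could not be detected. Fitted differences of better detected genes also failed to pass. With fibril-loaded neurons these included Hpgds, 2.01-fold lower, and Tbxas1, 2.71-fold higher, both against microglia alone.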

Other observations

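Inflammatory genes were looked at after the 3 libraries with high Ptges had been seen, so they are given as values with no test. Of 8 such genes (Acod1, Ccl5, Cxcl2, Il1a, Il1b, Il6, Nos2 and Tnf), 2 had their 3 highest levels in the same 3 libraries, Acod1 and Il6. Acod1, the enzyme that makes itaconate, was at 155, 63.8, 435 and 964 CPM in libraries 1 to 4 with fibril-loaded neurons, at 258, 97.95 and 578 CPM in libraries 1 to 3 with untreated neurons and at 6.19, 4.96, 20.6 and 10.3 CPM in microglia alone. The cytokine gene Il6 had counts in those 3 libraries only, at 2.53 and 4.38 CPM with fibril-loaded neurons and 2.73 CPM with untreated neurons. The cytokine gene Tnf was at 214 CPM in library 1 with fibril-loaded neurons, where Alox5 and Ptgs2 had no count, and at 244 CPM in library 4, where both had counts. Cxcl2, Il1b and Il1a were highest in library 3 with untreated neurons, at 3317, 140 and 18.3 CPM. Their next highest values were in library 4 with fibril-loaded neurons, at 1651, 74.2 and 15.4 CPM. Both libraries were those high in Ptgs2. For Ccl5, Nos2 and Tnf this pair did not hold the 2 highest values.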
